A study of Mus musculus with 12 samples.

Results

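The comparison set out here is that of uninjured pancreatic islets with and without Bmal1 in beta cells: 2 knockout libraries against 2 control libraries, 4 of the 12 libraries of the series, with all genes considered. All 4 were taken 24 h after an injection of citrate buffer, the vehicle of streptozotocin (STZ), a beta-cell toxin that the other 8 libraries received. The knockout mice are labelled Bmal1fl/flRIPCreERT/+, so both Bmal1 alleles are floxed and a Cre recombinase fused to an oestrogen receptor is driven by the rat insulin promoter, which is active in beta cells and leaves other islet cells unrecombined. The control mice are labelled Bmal1fl/fl and carry no Cre, so the genotype and the transgene cannot be told apart. Any dosing with tamoxifen, the hour of collection, age and sex are not given in the sources used here. Nor is it given whether libraries A and B came from separate mice. A p-value here rests on the scatter within groups of all 12 libraries, fitted together, and that scatter may be technical.

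BMAL1, encoded by Arntl, pairs with CLOCK or NPAS2 and activates genes through E-boxes, short DNA motifs. Among those genes are the Per and Cry repressors, which feed back on the pair, and Nr1d1 and Nr1d2, whose products REV-ERB alpha and beta repress Arntl, Npas2, Cry1 and Nfil3 through another motif, the RRE. In beta cells the clock is known for its part in the daily rhythm of insulin secretion. A single time of collection gives the level at one phase only.

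Total counts were 114294922 and 101772241 in knockout A and B, and 111358330 and 104363359 in control A and B. The label gives the cells as mostly beta cells, and both insulin genes and Gcg, the alpha-cell hormone, were abundant in all 4 libraries. Enzymes of the exocrine acinar cell, however, took 12.3 and 12% of counts in knockout A and B, against 37.1 and 36.2% in control A and B (28 genes). In bulk islets, fewer cells of a type and less RNA per cell cannot be told apart. Of 17411 genes tested with edgeR's quasi-likelihood test (Benjamini-Hochberg adjusted p under 0.05), 1679 were called, or 9.64%, of which 342 (1.96%) were higher and 1337 (7.68%) lower in knockout. Those percentages are the background for every count of list members below, and the median log2 over all genes was 0. Lists and their members were chosen with earlier results of these data known. A count above that background is therefore a description and no test. Levels are given as CPM, the count scaled to a common library size after TMM, which is not divided by gene length. The split depended on the scaling. Total counts moved the median of all genes to 0.53, with 6221 higher and 984 lower, and scaling on 20 endocrine genes moved it to -0.33, with 102 higher and 2719 lower. Changes below are relative to the TMM scale.

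**Figure D1:**
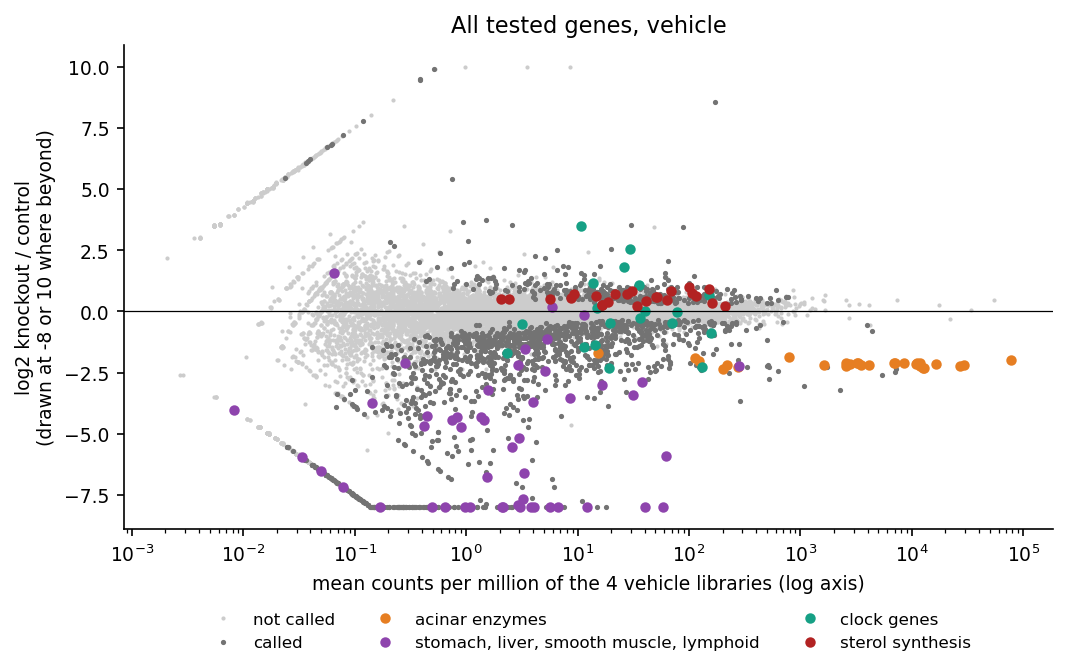
Each point is one of the 17411 tested genes; the horizontal axis is its mean CPM in the 4 vehicle libraries on a log axis and the vertical axis the log2 of knockout over control, drawn at -8 or 10 where beyond. Acinar enzymes form a row near -2.14, the list median, and the markers of stomach, liver, smooth muscle and lymphoid cells lie mostly below it, while sterol synthesis genes lie above 0.

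Arntl (chromosome 7, 113207465 to 113314126, mm10), the gene that was targeted, was not lower in knockout islets as a whole transcript. It had 17.8 and 19.9 CPM in knockout A and B, against 8.79 and 8.36 CPM in control A and B, and the groups did not overlap (log2 1.14, SE 0.11, adjusted p = 0.000238 by edgeR's quasi-likelihood test). A floxed allele of this gene in wide use has its loxP sites around the exon that encodes part of the basic helix-loop-helix domain, which is exon 8; the labels do not say which allele was used. Exon 8 (chromosome 7, 113284999 to 113285156, 158 bases, a coding exon on the plus strand) is shown because it is the exon of that allele and its coverage is given next. Its sequence is that of the GENCODE M21 annotation, in lower case throughout.
Arntl exon 8: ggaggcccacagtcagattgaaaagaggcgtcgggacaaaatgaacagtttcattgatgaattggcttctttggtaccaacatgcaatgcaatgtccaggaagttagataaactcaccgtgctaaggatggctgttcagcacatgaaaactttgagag

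Reads covered exon 8 to a mean depth per base of 40.2 and 39.2 in knockout A and B and of 35.6 and 37.9 in control A and B. The mean over all 20 exons was 63.7 and 62.8 in knockout, against 20.8 and 19.0 in control. Relative to that mean, exon 8 stood at 0.63 and 0.62 in knockout A and B, against 1.71 and 2.00 in control A and B. On the log2 scale the relative coverage differed by -1.57. No test was run on exon coverage. Scaled to the library totals instead, exon 8 was 1.08 times as high in knockout as in control, while the other 17 exons from exon 3 on were between 1.53 and 4.91 times as high, with a median of 3.51. The lowest of those 17 was exon 7, next to exon 8. Library totals are not the TMM scale of the gene values. Under total counts the median log2 of all genes was 0.53, and the log2 of exon 8 was 0.11. Exons 1 and 2, at the 5′ end, were 0.857 and 1.44 times as high in knockout, and relative to the transcript mean their ratios of knockout to control were 0.26 and 0.44, on either side of the 0.34 of exon 8. Exon 1 was covered to at most 1.45 reads per base in any library. Coverage of single exons varied between replicates: exon 9 stood at 0.88 and 1.46 in knockout A and B, against 1.66 and 1.83 in control A and B.

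Esr1, the oestrogen receptor alpha gene (chromosome 10, 4611989 to 5005633), had the largest gain of the genes with at least 2 CPM on average: 359 and 323 CPM in knockout A and B, against 0.968 and 0.842 CPM in control A and B (log2 8.55, SE 0.25, adjusted p = 3.73e-07 by edgeR's test). The reads were not spread over the gene. In knockout A and B, exons 6 to 9 of the transcript were covered to 2892 to 5450 reads per base, exon 10 to 103 and 55.6, and exons 1 to 5 to at most 1.82. In the controls no exon exceeded 3.02 reads per base. Exons 6 to 9 encode most of the hormone-binding domain, the part of the receptor that Cre-oestrogen receptor fusions carry. That pattern was present in both libraries labelled knockout and in neither control.

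**Figure D2:**
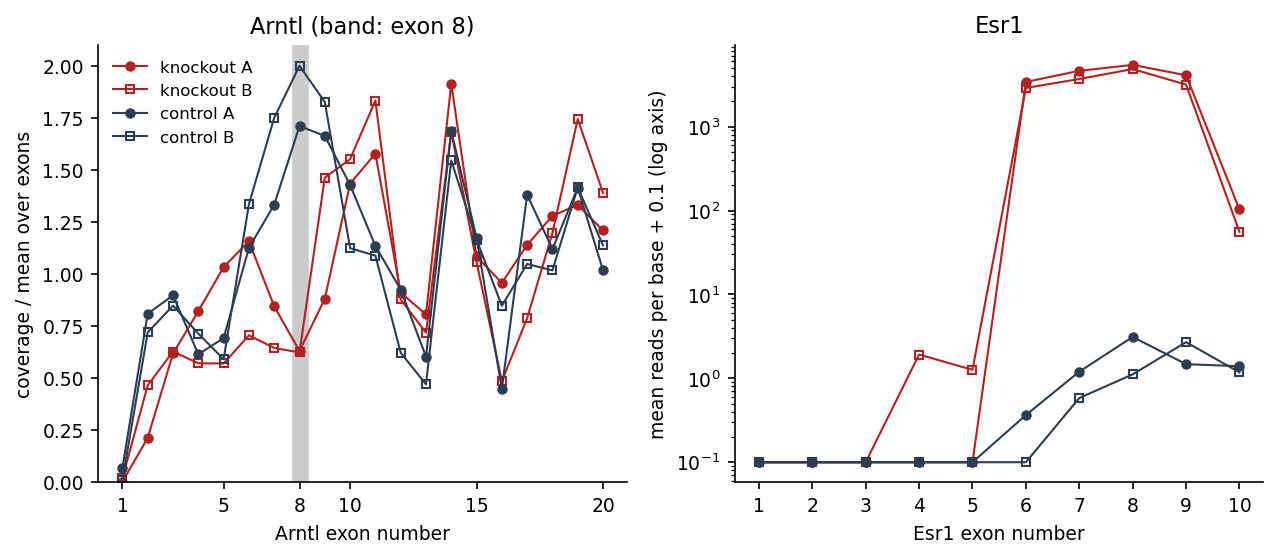
Left, coverage of each Arntl exon over the mean of the transcript; exon 8 (grey band) stands at 0.63 and 0.62 in knockout A and B and at 1.71 and 2.00 in control A and B. Right, coverage of each Esr1 exon in reads per base plus 0.1 on a log axis; exons 6 to 9 reach 2892 to 5450 in knockout and at most 3.02 in control.

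Among the activators of the clock, 3 of 7 tested members rose, Arntl and Npas2 among them, and 0 fell, against 1.96% of all genes that were higher. Npas2, whose product can stand in for CLOCK, had 19.3 and 19.8 CPM in knockout A and B, against 1.93 and 1.54 CPM in control A and B (log2 3.50, SE 0.22, adjusted p = 1.86e-05 by edgeR's test). Both knockout libraries were above both controls. Clock itself had 159 and 214 CPM in knockout A and B, against 60.6 and 172 CPM in control A and B, so the controls were far apart and the difference did not pass (adjusted p = 0.469). Without control B it did, with a log2 of 1.62 and an adjusted p of 0.0249. Arntl2, a paralogue of Arntl, did not pass at 2.55 and 2.60 CPM in knockout A and B, against 3.14 and 4.28 CPM in control A and B (adjusted p = 0.214), nor did Rora, an activator that binds the RRE, at 65.3 and 88.2 CPM in knockout A and B, against 75.0 and 80.4 CPM in control A and B. Under endocrine scaling Arntl2 passed as lower (log2 -0.87, adjusted p = 0.0397 by edgeR's test).

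Of the 10 repressors of the clock, 2 rose and 6 fell. The 2 that rose were Cry1 and Per2, both of the feedback arm that inhibits CLOCK and BMAL1. Cry1 had 46.9 and 52.9 CPM in knockout A and B, against 7.70 and 9.49 CPM in control A and B (log2 2.54, SE 0.15, adjusted p = 1.18e-05 by edgeR's test). Per2 had 50.2 and 45.6 CPM in knockout A and B, against 23.4 and 21.7 CPM in control A and B (log2 1.09, SE 0.12, adjusted p = 0.00051). For both genes the knockout libraries lay above the controls with no overlap.

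Their paralogues went the other way or did not pass. Cry2 had 117 and 104 CPM in knockout A and B, against 202 and 204 CPM in control A and B (log2 -0.88, SE 0.13, adjusted p = 0.00263 by edgeR's test). Per3 had 6.34 and 9.50 CPM in knockout A and B, against 20.8 and 20.7 CPM in control A and B (log2 -1.39, SE 0.27, adjusted p = 0.0123). Per1 had 38.8 and 26.8 CPM in knockout A and B, against 43.5 and 36.5 CPM in control A and B, which did not pass (adjusted p = 0.878). The call of Per3 was lost without knockout A, control A or control B, with adjusted p between 0.057 and 0.0826, and that of Cry2 under total counts (log2 -0.35, adjusted p = 0.0559).

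The REV-ERB genes, direct E-box targets, had among the largest losses of clock genes. Nr1d1 had 7.74 and 4.98 CPM in knockout A and B, against 33.8 and 29.3 CPM in control A and B (log2 -2.31, SE 0.40, adjusted p = 0.00651 by edgeR's test). Nr1d2 had 36.2 and 54.0 CPM in knockout A and B, against 210 and 227 CPM in control A and B (log2 -2.28, SE 0.27, adjusted p = 0.000776). Ciart, a repressor of the CLOCK and BMAL1 pair, was low in all 4 libraries, with 1.06 and 1.10 CPM in knockout A and B, against 4.30 and 2.80 CPM in control A and B (log2 -1.72, SE 0.26, adjusted p = 0.00319). Bhlhe40, which competes for E-boxes, had 15.9 and 16.8 CPM in knockout A and B, against 22.9 CPM in both controls (log2 -0.49, SE 0.09, adjusted p = 0.0112), and its paralogue Bhlhe41 did not pass at 36.2 and 45.1 CPM in knockout A and B, against 39.9 and 40.7 CPM in control A and B. The call of Nr1d1 was lost without knockout B (adjusted p = 0.0556), and that of Bhlhe40 without knockout A, control A or control B (adjusted p between 0.0726 and 0.0777) and with a log2 of 0.048 under total-count scaling. With the 4 vehicle libraries alone the adjusted p of Bhlhe40 was 0.116. Bhlhe41 passed as higher under total counts (log2 0.55, adjusted p = 0.0336 by edgeR's test).

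The PAR bZIP factors and NFIL3 share the D-box motif, which the PAR factors activate and NFIL3 represses. Nfil3, the repressor, had 41.9 and 40.0 CPM in knockout A and B, against 11.8 and 11.4 CPM in control A and B (log2 1.82, SE 0.14, adjusted p = 6.51e-05 by edgeR's test). Dbp, an activator, had 6.79 and 5.34 CPM in knockout A and B, against 17.3 and 15.9 CPM in control A and B (log2 -1.45, SE 0.26, adjusted p = 0.00815). Its exons overlap those of Sphk2 over 32.1% of their length, counted without regard to strand. Whether reads were shared in these stranded libraries was not tested. Tef had 58.4 and 58.7 CPM in knockout A and B, against 79.3 and 83.7 CPM in control A and B (log2 -0.48, SE 0.09, adjusted p = 0.00759), and Hlf did not pass at 14.3 and 17.01 CPM in knockout A and B, against 14.2 and 14.1 CPM in control A and B. Under total counts Hlf passed as higher (log2 0.68, adjusted p = 0.00658 by edgeR's test). Dbp lost its call without knockout B or control A (adjusted p = 0.0658 and 0.0512), and Tef without control B (adjusted p = 0.0738); under total-count scaling Tef had a log2 of 0.057, and its adjusted p was 0.0938 with the 4 vehicle libraries alone.

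**Figure D3:**
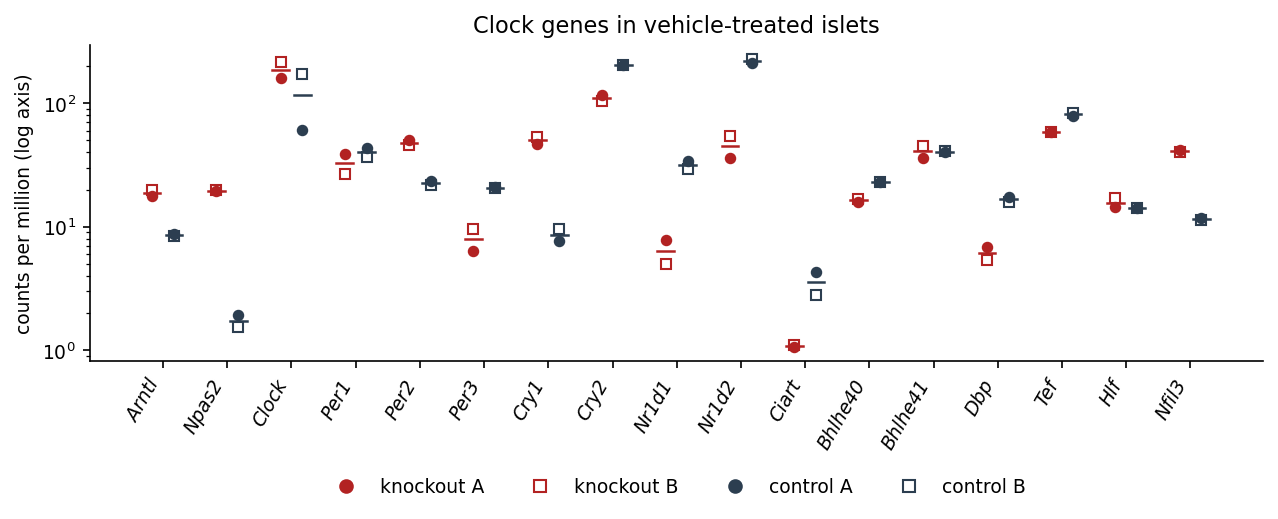
CPM of 17 clock genes in each vehicle library on a log axis, knockout in red left of control in dark blue, with circles for A, squares for B and bars at the means. Npas2, Cry1, Per2, Nfil3 and Arntl are higher in both knockout libraries, and Nr1d1, Nr1d2, Ciart, Dbp, Per3 and Cry2 are lower in both.

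Genes that cycle in many tissues downstream of the clock gave 1 gain and 1 loss among 12 tested, against 5 and 0 under total counts and 1 and 4 with GC correction. Leo1, a subunit of the PAF1 complex, had 26.3 and 26.8 CPM in knockout A and B, against 14.2 and 15.5 CPM in control A and B (log2 0.84, SE 0.10, adjusted p = 0.000786 by edgeR's test). Tsc22d3, also induced by glucocorticoids, had 29.2 and 30.7 CPM in knockout A and B, against 44.6 and 45.8 CPM in control A and B (log2 -0.60, SE 0.09, adjusted p = 0.00263), and its call ended under total-count scaling (log2 -0.06). Usp2, a deubiquitinase, and Wee1, a cell-cycle kinase, did not pass (log2 -0.80 and -0.41, adjusted p = 0.111 and 0.272). Usp2 passed under DESeq2's test, GC correction and endocrine scaling, and turned to 2.60 in the fit with the acinar covariate. None of the 8 genes that modify clock proteins by phosphorylation or degradation passed, with log2 values between -0.18 and 0.15; under total counts 6 of them were higher. The acinar score, the mean log2 CPM of the acinar enzymes, was 10.2 and 9.9 in knockout A and B, against 12.3 and 12.1 in control A and B. Since 98% of its variance lay between groups, a fit with this score as covariate cannot separate acinar content from genotype. Values from that fit, for Usp2 above and throughout, show only how far an estimate depends on the model. In it Cry2, Dbp and Nr1d1 turned to 0.58, 2.03 and 3.31. In that fit the calls of Arntl (log2 0.93, adjusted p = 0.104), Per3 (-1.03), Ciart (-1.12), Bhlhe40 (-0.67), Tef (-0.32) and Leo1 (0.71) ended, and Rora and Wee1 passed as lower (-3.09 and -2.66).

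Promoter windows of 300 bases around each start site, most of it upstream, in the RefSeq annotation of GRCm38.p6 were searched on both strands for the E-box CACGTG, the RRE core TAGGTCA and the D-box TTATGNAA. Of the genes on the clock lists, 30 had a window. The RRE letters were in windows of 3 of the 5 genes that were higher, 0 of the 8 that were lower and 0 of the 17 that were not called; among all 27025 genes with a window the share was 2.97%. The E-box was in windows of 1 of the 5 higher genes, 2 of the 8 lower ones and 5 of the 17 others, against 8.09% of all genes, and the D-box in 0 of 5, 1 of 8 and 1 of 17, against 3.99%. Of the lower genes, Ciart and Tef held the E-box in a window, and Nr1d1, Nr1d2, Dbp, Cry2, Per3 and Tsc22d3 did not. All these numbers are a description of the letters only. The windows of the 3 higher genes with RRE letters are shown, with those letters in capitals; the match in Nfil3 is on the opposite strand.
Arntl (chr7:113207261-113207560, plus strand): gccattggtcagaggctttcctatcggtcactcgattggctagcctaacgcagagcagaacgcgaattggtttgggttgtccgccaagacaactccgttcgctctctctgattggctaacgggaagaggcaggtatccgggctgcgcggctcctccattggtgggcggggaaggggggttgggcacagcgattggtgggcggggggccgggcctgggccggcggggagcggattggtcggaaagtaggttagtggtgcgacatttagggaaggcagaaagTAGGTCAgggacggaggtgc
Nfil3 (chr13:52980990-52981289, minus strand): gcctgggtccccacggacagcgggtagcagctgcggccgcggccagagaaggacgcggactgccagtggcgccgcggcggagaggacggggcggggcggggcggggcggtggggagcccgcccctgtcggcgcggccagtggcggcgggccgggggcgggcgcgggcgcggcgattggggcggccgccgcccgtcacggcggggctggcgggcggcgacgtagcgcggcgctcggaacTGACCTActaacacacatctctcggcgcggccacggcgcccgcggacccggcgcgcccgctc
Leo1 (chr9:75441274-75441573, plus strand): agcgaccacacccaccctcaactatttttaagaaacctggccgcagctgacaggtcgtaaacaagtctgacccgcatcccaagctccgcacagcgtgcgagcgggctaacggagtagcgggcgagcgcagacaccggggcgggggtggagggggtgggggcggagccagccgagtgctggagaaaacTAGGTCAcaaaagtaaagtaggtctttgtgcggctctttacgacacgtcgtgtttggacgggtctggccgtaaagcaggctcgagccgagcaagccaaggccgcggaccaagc

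The first base of the match lay at 31 after the start site in Arntl, at -12 in Nfil3 and at -63 in Leo1. Windows with E-boxes are shown for a loss and for a pair of gains. Ciart, which fell, held 3 of them, beginning at -116, -58 and -44. Cry1, which rose, held 1 at -60, and Ppp1r3c, which had the largest gain after Esr1, held 1 at -104. E-boxes are in capitals, and each sequence runs 5′ to 3′ along its gene.
Ciart (chr3:95882179-95882478, minus strand): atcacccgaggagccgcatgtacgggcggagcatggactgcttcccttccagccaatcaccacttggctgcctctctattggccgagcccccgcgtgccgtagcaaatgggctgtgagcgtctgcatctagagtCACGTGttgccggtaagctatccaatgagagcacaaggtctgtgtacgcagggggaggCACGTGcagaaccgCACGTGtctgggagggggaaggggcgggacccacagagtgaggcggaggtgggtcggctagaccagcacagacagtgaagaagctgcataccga
Cry1 (chr10:85185005-85185304, minus strand): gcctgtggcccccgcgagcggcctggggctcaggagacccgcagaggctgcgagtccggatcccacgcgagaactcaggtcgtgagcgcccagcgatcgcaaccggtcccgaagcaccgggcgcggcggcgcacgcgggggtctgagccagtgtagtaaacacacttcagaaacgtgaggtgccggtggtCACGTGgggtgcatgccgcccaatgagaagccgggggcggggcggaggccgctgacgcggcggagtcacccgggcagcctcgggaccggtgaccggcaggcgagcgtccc
Ppp1r3c (chr19:36736555-36736854, minus strand): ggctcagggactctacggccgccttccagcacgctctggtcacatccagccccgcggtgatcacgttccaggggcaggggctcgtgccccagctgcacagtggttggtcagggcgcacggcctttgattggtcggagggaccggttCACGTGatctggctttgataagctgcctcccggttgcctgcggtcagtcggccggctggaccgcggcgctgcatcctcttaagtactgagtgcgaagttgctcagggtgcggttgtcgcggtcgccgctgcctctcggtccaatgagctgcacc

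Outside the clock lists and Esr1, the largest gain among genes averaging at least 2 CPM was that of Ppp1r3c. Ppp1r3c, a glycogen-targeting subunit of protein phosphatase 1, had 49.97 and 60.3 CPM in knockout A and B, against 3.98 and 5.50 CPM in control A and B (log2 3.54, SE 0.21, adjusted p = 1.23e-05 by edgeR's test). Kcnk13, a potassium channel of the tandem-pore family, had 5.15 and 4.37 CPM in knockout A and B, against 0.326 and 0.501 CPM in control A and B (log2 3.52, SE 0.27, adjusted p = 6.29e-05). In both genes the lowest knockout library was several times above the highest control. Slc41a3, of a family of magnesium transporters, had 39.8 and 28.4 CPM in knockout A and B, against 6.45 and 5.29 CPM in control A and B (log2 2.54), and Tcf24, a basic helix-loop-helix factor, 91.5 and 116 CPM in knockout A and B, against 25.5 and 23.9 CPM in control A and B (log2 2.07).

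Relt, a receptor of the tumour necrosis factor family, Dusp4, a phosphatase of MAP kinases, and S100a4, a calcium-binding protein, rose by log2 1.87, 1.86 and 1.82 (adjusted p = 0.00213, 9.49e-05 and 0.000571 by edgeR's test). Dusp4 had 10.6 and 12.8 CPM in knockout A and B, against 3.01 and 3.44 CPM in control A and B. Hspa1a, an inducible HSP70, had 11.6 and 5.16 CPM in knockout A and B, against 2.24 and 1.48 CPM in control A and B (log2 2.17, SE 0.51, adjusted p = 0.03). Its groups did not overlap, but the call was lost without knockout A, control A or control B (adjusted p between 0.101 and 0.205). With the acinar score as covariate, Tcf24 and S100a4 turned to -0.16 and -0.37, and the call of Dusp4 ended (log2 1.22, adjusted p = 0.141).

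Of 192 tested markers of acinar, ductal, stromal, vascular, immune, stomach, liver and intestinal cells, 97 were lower and 0 higher in knockout, against 7.68% and 1.96% of all genes. The absence of gains depended on the scaling: under total counts 8 endothelial, 5 ductal, 5 Schwann-cell and 3 macrophage genes and 1 each of the stromal, stomach and intestinal genes were higher. Gkn2 and Gkn1, secreted by the stomach lining, had 0 counts in both knockout libraries, against 118 and 114 CPM and against 84.7 and 75.8 CPM in control A and B. With a floor of 3 counts over the knockout group, they were at least 10130-fold and 6993-fold lower. The same held for Clca1, Tff1 and Muc5ac of mucous epithelium (at least 2577-fold, 2131-fold and 980-fold lower), for Gsta1 and Mug1 of liver (725-fold and 658-fold), for Cnn1 of smooth muscle (532-fold) and for Sprr2a2, Lypd8, Psca and Cr2 (between 371-fold and 450-fold). Exons of Tff1 and Sprr2a2 overlap another gene over 46.2 and 100.0% of their length. With the acinar score as covariate the calls of Gkn2, Muc5ac, Cnn1, Sprr2a2 and Psca ended (adjusted p between 0.0596 and 0.319). In all, 206 of the lower genes had no count in either knockout library, and 12 of the higher genes none in either control.

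By list, 25 of 28 acinar enzymes, 5 of 6 acinar transcription factors, 6 of 7 Reg genes, 14 of 15 liver genes, 9 of 12 stomach genes, 8 of 8 smooth muscle genes, 8 of 15 lymphoid genes, 6 of 16 intestinal genes, 6 of 15 ductal genes, 5 of 16 stromal genes and 2 of 6 neutrophil genes were lower. Pnlip, pancreatic lipase, had 10391 and 10623 CPM in knockout A and B, against 48171 and 48424 CPM in control A and B (log2 -2.20, SE 0.09, adjusted p = 1.73e-06 by edgeR's test). Reg3g, a secreted lectin of inflamed acinar cells, had 39.6 and 42.9 CPM in knockout A and B, against 532 and 521 CPM in control A and B (log2 -3.67). Alb, serum albumin, had 1.84 and 2.22 CPM in knockout A and B, against 117 and 129 CPM in control A and B (log2 -5.92). Acta2 and Myh11 of contractile cells had log2 values of -3.41 and -2.88, against -0.13 and -0.03 with the acinar score as covariate (adjusted p = 0.854 and 0.991). Of cells that live inside islets, 1 of 17 endothelial genes (Vwf, log2 -2.41), 2 of 24 macrophage genes and 0 of 7 Schwann-cell genes were called, with list medians of -0.04, -0.39 and 0.25. Under endocrine scaling 4 endothelial and 12 macrophage genes were lower, and 13 macrophage genes with GC correction. Vwf turned to 1.44 with the acinar covariate. Losses on the stromal list numbered 2 under total counts, 8 under endocrine scaling and 9 with GC correction. The part of these cells in the other results was not tested.

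The next genes had the largest losses among those with at least 10 counts in each library and off the tissue lists. Serpina1e, Serpina1c and Serpina1a, near-identical copies of the alpha-1 antitrypsin gene between which reads may be split, had log2 values of -6.85, -4.74 and -3.55. Cxcl13, a B-cell chemokine, Cd22 and Jchain, both of B-lineage cells, and Serpina3n and Lcn2, acute-phase proteins, had log2 values of -5.33, -3.93, -3.58, -3.88 and -3.93. Serpina3n had 2.87 and 1.87 CPM in knockout A and B, against 35.8 and 34.2 CPM in control A and B. Zbtb16, a zinc-finger factor induced by glucocorticoids, had 0.707 and 0.686 CPM in knockout A and B, against 13.3 and 14.01 CPM in control A and B (log2 -4.29, SE 0.19, adjusted p = 2.18e-06 by edgeR's test). Agr2, Tdh and Zfp703 completed the set with log2 values of -4.44, -4.25 and -3.79. The calls of Lcn2 and Zfp703 ended with the acinar score as covariate (log2 -0.50 and -0.66).

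Of 24 genes of sterol synthesis and uptake 9 rose, 0 fell and 15 did not pass, with a median log2 of 0.56. The members that rose ran from 0.43 to 0.98. Hmgcs1, which makes HMG-CoA at the head of the pathway, had 120 and 144 CPM in knockout A and B, against 62.2 and 71.6 CPM in control A and B (log2 0.98, SE 0.15, adjusted p = 0.00345 by edgeR's test). Sqle, squalene epoxidase, had 134 and 149 CPM in knockout A and B, against 89.7 and 91.4 CPM in control A and B (log2 0.64). Stard4, a sterol carrier, rose by log2 0.72, and Scd2, a fatty acid desaturase, by 0.86 with 307 and 341 CPM in knockout A and B, against 174 and 182 CPM in control A and B. Among 15 genes of fatty acid synthesis Scd2 alone passed; under total counts 10 rose, under endocrine scaling 1 rose and 3 fell, and with GC correction 6 rose and 3 fell. With endocrine scaling 1 of the 24 sterol genes passed and the median was 0.21, while 22 rose with total counts and 21 with GC correction. Stard4 lost its call without knockout B, control A or control B (adjusted p between 0.0559 and 0.0748), and the count of sterol genes lay between 2 and 5 in the fits without 1 library. With the acinar score as covariate Hmgcs1, Sqle and Stard4 turned to -0.90, -0.27 and -0.59, and the call of Scd2 ended (log2 0.096, adjusted p = 0.735).

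The list of the unfolded protein response held calls in both directions. Of 29 genes, 7 rose and 5 fell (median log2 0.16). Those that rose, Sdf2l1, Pdia4, Pdia6, Calr, Hyou1, Creld2 and Manf, encode chaperones and folding factors of the endoplasmic reticulum, and their log2 values lay between 0.54 and 0.99. Sdf2l1 had 69.5 and 66.3 CPM in knockout A and B, against 35.1 and 33.4 CPM in control A and B (log2 0.99, SE 0.09, adjusted p = 0.000191 by edgeR's test). Those that fell were Herpud1, Sel1l and Edem1, of the degradation of misfolded proteins, the stress sensor Eif2ak3 and the asparagine synthetase gene Asns. Herpud1 had 167 and 149 CPM in knockout A and B, against 411 and 392 CPM in control A and B (log2 -1.35, SE 0.12, adjusted p = 0.000133). Sel1l had 284 and 336 CPM in knockout A and B, against 666 and 718 CPM in control A and B (log2 -1.16). Under total counts 16 rose and 2 fell, under endocrine scaling 2 rose and 8 fell, and with GC correction 13 rose and 7 fell. In the fits without 1 library 2 to 6 rose and 3 to 5 fell. With the acinar covariate Pdia4 turned to -0.31 and the call of Herpud1 ended (log2 -0.02, adjusted p = 0.973).

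**Figure D4:**
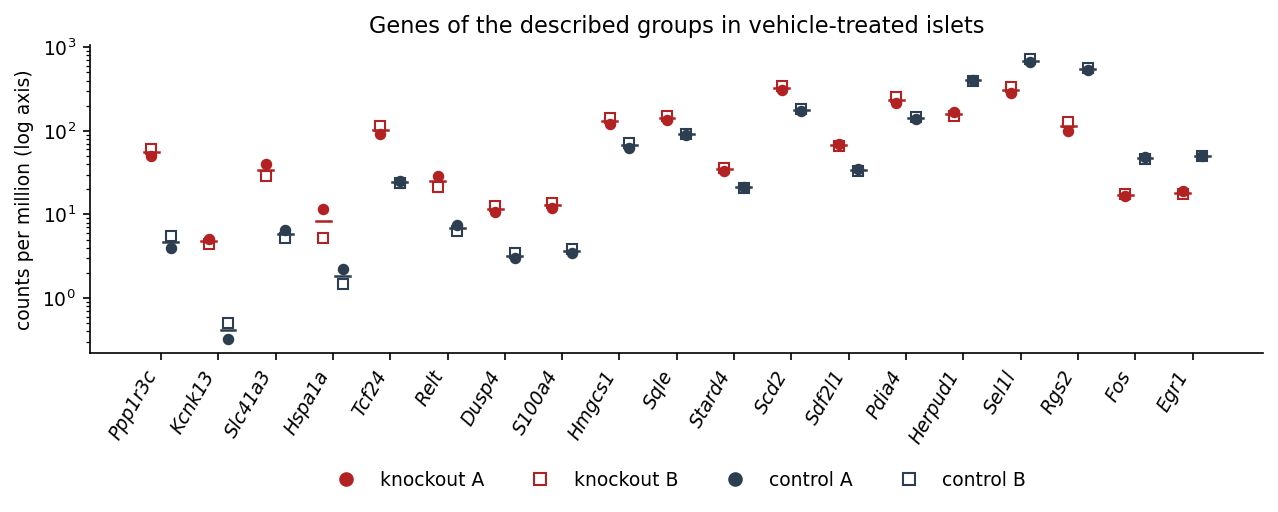
CPM in each vehicle library on a log axis, knockout in red left of control in dark blue, with circles for A, squares for B and bars at the means. From Ppp1r3c to Pdia4 both knockout libraries are above both controls, and from Herpud1 to Egr1 both are below.

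Of 27 immediate early genes, which answer stimulation or dissociation of tissue within minutes, 13 fell, 0 rose and 14 did not pass, with a median log2 of -1.09. Fos had 16.6 and 17.3 CPM in knockout A and B, against 48.2 and 46.3 CPM in control A and B (log2 -1.48, SE 0.11, adjusted p = 5.18e-05 by edgeR's test). Egr1 had 18.8 and 17.6 CPM in knockout A and B, against 49.5 and 50.4 CPM in control A and B (log2 -1.46), and Fosb had a log2 of -2.79. Rgs2, a regulator of G-protein signalling on the cAMP list, had 99.3 and 128 CPM in knockout A and B, against 532 and 564 CPM in control A and B (log2 -2.27, SE 0.19, adjusted p = 0.000106). Targets of NF-kB gave 6 losses and 0 gains among 27 (median -0.52). Under total counts 5 immediate early genes rose and 11 fell, and 6 NF-kB targets rose and 3 fell; under endocrine scaling 18 and 11 fell and 0 rose. Acinar enzymes fell in the same libraries (25 of 28). With the acinar score as covariate the calls of Fos and Egr1 ended (log2 -0.73 and -0.34, adjusted p = 0.112 and 0.438), and 4 immediate early genes were higher and 5 lower.

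Among markers of the beta cell itself the number of calls depended on the fit. Of 28 identity genes 1 passed, Nkx2-2, a beta-cell transcription factor, with 37.0 and 31.7 CPM in knockout A and B, against 22.5 and 22.9 CPM in control A and B (log2 0.60, adjusted p = 0.0302 by edgeR's test). Of 28 genes of insulin secretion 1 passed, Unc13a, which primes vesicles, with 66.2 and 55.8 CPM in knockout A and B, against 35.8 and 31.0 CPM in control A and B (log2 0.87, adjusted p = 0.0257). Both calls were lost without knockout A, control A or control B (adjusted p between 0.0842 and 0.176) and under endocrine scaling, and that of Nkx2-2 with the 4 vehicle libraries alone (adjusted p = 0.0775). The list medians were 0.31 and 0.25, and -0.04 and -0.09 under endocrine scaling, so a direction is not given for either list. Under total counts 19 identity and 21 secretion genes rose and 0 fell. With GC correction 12 identity genes rose and 2 fell, and 13 secretion genes rose and 0 fell; with DESeq2's test 5 and 4 rose and 1 and 0 fell.

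Ins2 had 80394 and 46831 CPM in knockout A and B, against 51746 and 41530 CPM in control A and B, and Ins1 had 23835 and 15104 CPM in knockout A and B, against 26479 and 22566 CPM in control A and B. The knockout libraries lay far apart for both, and neither passed (adjusted p = 0.682 and 0.715 by edgeR's test). Gcg, Sst, Slc2a2 and Mafa did not pass either, with log2 values of 0.06, 0.14, 0.06 and 1.36 and SEs of 0.09, 0.26, 0.12 and 1.10. Under total counts Gcg and Slc2a2 passed as higher (log2 0.59 and 0.60, adjusted p = 0.00174 and 0.00675 by edgeR's test). With the letters A and B as a block and GC correction, Ins2, Sst and Mafa passed as higher (log2 0.38, 0.12 and 1.02). Pdx1 had 33.0 and 28.3 CPM in knockout A and B, against 19.4 and 17.9 CPM in control A and B, without overlap, yet did not pass (log2 0.72, SE 0.23, adjusted p = 0.104); with DESeq2's test, GC correction or total counts it did. With the acinar score as covariate Ins1 turned to 4.39 and Slc2a2 to -1.21, and Ins2, Sst, Mafa and Pdx1 passed as higher. Cdkn1a, a cell-cycle inhibitor, did not pass at a log2 of -0.10. It passed as higher under total counts (log2 0.44, adjusted p = 0.00836 by edgeR's test) and as lower under endocrine scaling (log2 -0.44, adjusted p = 0.0434).

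Of 18 genes kept low in mature beta cells 13 fell and 1 rose (median log2 -0.62). Markers of acinar and stromal cells, which can express such genes, fell beside them (25 of 28 and 5 of 16). With the acinar score as covariate 8 of the 18 were lower and 4 higher. Ldha, lactate dehydrogenase, had 14.2 and 10.96 CPM in knockout A and B, against 28.2 and 26.0 CPM in control A and B (log2 -1.11, adjusted p = 0.00457 by edgeR's test), and Cat, catalase, had a log2 of -1.44. Hk2, a hexokinase on the glycolysis list, had a log2 of -2.96, or -1.76 without passing (adjusted p = 0.103) in the fit with the acinar score. Of the 23 genes on that list 4 fell and 0 rose; under total counts 7 rose and 3 fell, and with GC correction 4 rose and 5 fell. The gene that rose was Aldh1a3, an aldehyde dehydrogenase used as a marker of dedifferentiated beta cells, with 5.94 and 6.09 CPM in knockout A and B, against 2.59 and 2.77 CPM in control A and B (log2 1.17, SE 0.12, adjusted p = 0.000286). Its 2 knockout libraries were above both controls, and the call held in each fit without 1 library. Under total counts 5 of the 18 fell, and in the fits without 1 library 7 to 10 did. Ldha turned to 1.26 with the acinar covariate.

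**Figure D5:**
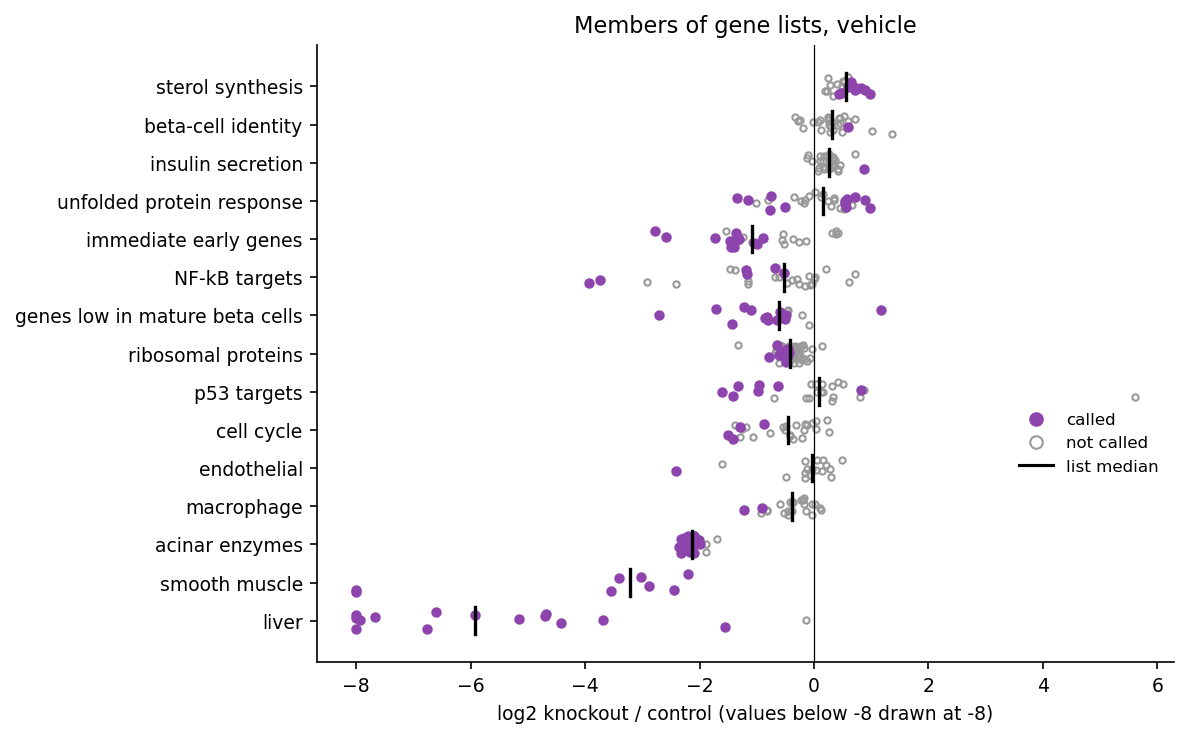
Log2 of knockout over control for every tested member of 15 gene lists, with filled points for called genes and a bar at the list median; values below -8 are drawn at -8. Sterol synthesis lies at a median of 0.56, immediate early genes at -1.09 and acinar enzymes at -2.14.

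Of 75 ribosomal protein genes 12 fell and 0 rose (median log2 -0.42), with Rpl23 at 187 and 193 CPM in knockout A and B, against 302 and 276 CPM in control A and B; under total counts 0 passed and the median was 0.11, under endocrine scaling 40 fell, with GC correction 32, and in the fits without 1 library 1 to 6 fell. Of 24 p53 targets 6 fell and 1 rose, with Sesn1, a stress-induced inhibitor of mTORC1, at 37.3 and 44.1 CPM in knockout A and B, against 99.9 and 105 CPM in control A and B (log2 -1.33); without 1 library 2 to 4 fell, and under total counts 12 rose and 2 fell. Of 26 cell-cycle genes 4 fell, among them Mki67 and Top2a (log2 -1.41 and -1.29), and without control B 2 did; under total counts 3 rose and 2 fell, and with GC correction 12 fell. Of 78 potassium channel genes 3 rose and 7 fell. Among the called members Kcnk13 and Kcnf1 had the largest gain and loss (log2 3.52 and -2.72), while members that did not pass reached 5.08. Under total counts 22 rose and 7 fell, and without control B fewer were called than in the main fit. Of 82 respiratory chain genes 1 rose and 1 fell, and under total counts 37 rose and 0 fell.

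The genotype difference was not the same after STZ. By a test of the difference between effects in the same edgeR fit, 6558 genes (37.7%) differed between vehicle and 24 h after STZ and 4538 (26.1%) between vehicle and 4 wk after STZ. The comparison with 4 wk mixes treatment and time, and both use the same vehicle libraries. The direction of these differences, vehicle minus STZ, depended on the scaling. Against 24 h, 2882 were positive and 3676 negative with TMM, 7708 and 2436 with total counts, and 82 and 13143 with endocrine scaling. Against 4 wk, the numbers were 1280 and 3258, 5832 and 2371, and 70 and 8640. Of the 13 clock genes described above as called, the effect of genotype differed from that 24 h after STZ for 10 and from that at 4 wk for 13. Arntl had a log2 of 1.14 under vehicle, -0.26 at 24 h and -0.84 at 4 wk (difference of vehicle from 24 h 1.40, SE 0.16, adjusted p = 0.000153; from 4 wk 1.97, SE 0.16, adjusted p = 2.71e-05, edgeR's test). Bhlhe40 had -0.49 under vehicle, 1.19 at 24 h and 1.75 at 4 wk. Of the 13, 6 were called with the same sign at 24 h and 4 at 4 wk. Npas2, Cry1 and Nfil3 were called higher in knockout in each condition. Their log2 values were 3.50, 2.54 and 1.82 under vehicle, 1.51, 1.36 and 0.40 at 24 h, and 2.35, 1.57 and 0.48 at 4 wk. Nr1d1 had -2.31 under vehicle, -0.29 at 24 h and 0.28 at 4 wk.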

How the data were processed

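Stranded libraries of islet mRNA were sequenced as paired reads, per the labels. Per the file headers, StringTie 1.3.6 quantified a fixed mm10 annotation. Alignment software: not given in the sources used here. As deposited by the authors, the gene table holds estimated counts (expected counts) per gene, unscaled, and each library has a transcript file with coverage and TPM; coverage, as deposited, is the mean depth per base. Coverage was summed over transcripts sharing an exon; TPM was not used. In R 4.3.3, edgeR 4.0.16 scaled the counts by TMM (factors 0.825 to 1.21 in the vehicle libraries), filterByExpr kept 17411 of 24421 genes, and a robust quasi-likelihood F test (two-sided, 6 residual and a median of 2.6 prior degrees of freedom) was fitted to all 12 libraries, so that the 4 vehicle libraries share one estimate of spread with the others. P-values were adjusted by Benjamini-Hochberg, threshold 0.05. Each SE was calculated back from the test, as the absolute log2 over the square root of its F value. The fit was tested on simulated data. DESeq2 1.42.0, other scalings, GC correction, an acinar covariate, the replicate letters as a block, no filter, the 4 vehicle libraries alone and leaving out each of them were the alternatives.

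Genes named are Arntl, Esr1, the clock lists, the 12 genes that gained most and the 12 that lost most among called genes averaging at least 2 CPM, the 12 largest losses with 10 counts in every library and off the tissue lists, the 4 members of smallest adjusted p of a list, and 9 fixed genes. Some genes picked by this rule are left out. Members and lists were chosen with earlier results of these data known. Fold bounds use 3 counts over the group and, like the depth, cover counting error only. Overlaps over 20% of exon length with another gene are stated. They were counted on either strand, from the exons of the mm10 annotation that StringTie quantified. Libraries A and B of a group were not copies, with a chi-square per degree of freedom of 275 in knockout and 45.6 in control.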

Additional observations from a re-analysis of the deposited data

Results flagged for a closer look

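The difference between genotypes changed between conditions beyond the spread, by edgeR's test of the difference itself. The number of genes concerned was 6558 between vehicle and 24 h after STZ and 4538 between vehicle and 4 wk after STZ. Differences are those under vehicle minus those after STZ, on the log2 scale. Their median over all genes was 0.008 against 24 h and 0 against 4 wk with TMM. It was 0.79 and 0.62 with total counts, and -1.98 and -0.985 with endocrine scaling, so size and direction depended on the scaling. The differences listed next are on the TMM scale. Against 24 h they were 1.40 for Arntl, 1.99 for Npas2, 1.07 for Per2, 1.18 for Cry1, -2.02 for Nr1d1, -1.39 for Nr1d2, -2.13 for Ciart, -1.67 for Bhlhe40, -0.39 for Tef and 1.42 for Nfil3. Against 4 wk they were 1.97 for Arntl, 1.14 for Npas2, 0.55 for Per2, -1.45 for Per3, 0.97 for Cry1, -0.90 for Cry2, -2.59 for Nr1d1, -1.95 for Nr1d2, -2.47 for Ciart, -2.24 for Bhlhe40, -2.31 for Dbp, -1.03 for Tef and 1.34 for Nfil3. Each group held 2 libraries, so no library could be set against its own group.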

How the results depend on the processing

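Against 1679 calls under vehicle, DESeq2 size factors gave 1651 (1627 of them among the 1679), TMM without acinar genes 1625 (1595) and no filter 1606 (1606). The count moved to 7205 with total counts, 2821 with endocrine scaling, 2625 with DESeq2's test, 4063 with a GC offset, 9611 with the acinar covariate (883 among the 1679) and 940 with the vehicle libraries alone. Without 1 vehicle library it lay between 1064 and 1217, of which 1001 to 1119 were among the main calls. The labels give the letters A and B no meaning beyond a number, and with 2 pairs under vehicle they were not taken as pairs. The A minus B gap correlated across genes between genotypes at 0.363 in the vehicle libraries, and at 0.239 and 0.781 in those taken 24 h and 4 wk after STZ, a hint from the data and not from the design, and under vehicle it went with GC content in knockout (0.648) and control (0.335). With the letter as a replicate block, 3527 genes were called (1653 among the 1679), 5328 with GC offset too; of the named genes Usp2, Wee1, Pdx1 and Ins1 gained a call (adjusted p = 0.0115, 0.0199, 0.0018 and 0.0462) and 0 lost one, while beta-cell identity genes gave 16 higher and 3 lower, insulin secretion genes 12 and 0, clock outputs 1 and 5, and ribosomal protein genes 0 and 56; the block gave 9484 calls for the difference from 24 h and 7674 for that from 4 wk. Those differences numbered 10144 and 8203 with total counts, 13225 and 8710 with endocrine scaling, and 5229 to 6024 and 3379 to 4040 without 1 library. Arntl exon 8 coverage had a log2 of -1.57 over the transcript mean and of 0.11 over the library total, without TMM.

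Of 86 called genes given with values of their own, 74 kept their call in all 4 fits without 1 library and 0 changed sign. Reversed under total counts were Bhlhe40 (0.048), Tef (0.057) and Cdkn1a (0.44). Reversed with the acinar covariate were Per1 (6.36), Cry2 (0.58), Nr1d1 (3.31), Bhlhe41 (-2.16), Dbp (2.03), Hlf (-1.32), Usp2 (2.60), Tcf24 (-0.16), S100a4 (-0.37), Hmgcs1 (-0.90), Sqle (-0.27), Stard4 (-0.59), Pdia4 (-0.31), Ldha (1.26), Vwf (1.44), Ins1 (4.39), Slc2a2 (-1.21), Mt1 (4.79) and Mt2 (5.34). In that fit, among 103 genes given with values, 21 lost their call and 7 gained one without a change of sign. The 19 reversed genes are counted apart, and some of them also lost or gained a call. That fit cannot separate acinar content from genotype. The cause was not tested.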

Other observations

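A further group was noticed after its values were seen and so carries no test as a group: genes that glucocorticoids induce in many tissues. Of 15 such genes tested, 13 were lower and 0 higher in knockout, with a median log2 of -1.37. Fkbp5, a co-chaperone of steroid receptors, had 64.3 and 60.8 CPM in knockout A and B, against 204 and 201 CPM in control A and B (log2 -1.70, SE 0.10, adjusted p = 1.14e-05 by edgeR's test). Sgk1, a kinase, had 25.1 and 25.03 CPM in knockout A and B, against 68.4 and 69.8 CPM in control A and B (log2 -1.46). Fam107a had 4.52 and 3.55 CPM in knockout A and B, against 29.0 and 28.3 CPM in control A and B (log2 -2.83). Ddit4, an inhibitor of mTORC1, Errfi1, an inhibitor of the EGF receptor, Klf9 and Pdk4, a kinase of pyruvate dehydrogenase, had log2 values of -1.36, -1.37, -0.78 and -0.78. The metallothioneins Mt1 and Mt2 had -1.95 and -2.22, with 35.8 and 17.5 CPM of Mt1 in knockout A and B, against 121 and 85.1 CPM in control A and B. Their calls were lost without knockout B, control A or control B (adjusted p between 0.0576 and 0.16), that of Pdk4 without knockout A or control B (0.075 and 0.0734), and Klf9 and Pdk4 did not pass under total counts (log2 -0.24 and -0.25). Mt1 and Mt2 turned to 4.79 and 5.34 with the acinar covariate. Per1 and Cdkn1c, on the same list, did not pass (log2 -0.29 and 0.02). The receptor gene Nr3c1 did not pass, at 120.5 and 155 CPM in knockout A and B, against 148 and 154 CPM in control A and B. It passed as lower with GC correction (log2 -0.13, adjusted p = 0.0445 by edgeR's test) and with the acinar covariate (log2 -2.71). Acinar enzymes fell in the same libraries (25 of 28), and the part of other cell types in these values was not tested.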
